A study of Homo sapiens with 60 samples.

Results

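The data described here concern 36 genes of the amino acid stress response, taken from 19712 genes measured by RNA sequencing in lung cancer cell lines. They were chosen by name, as known targets of the transcription factor ATF4 and as cytosolic aminoacyl-tRNA synthetases. By role they comprised 11 transcription factors and feedback genes, 8 enzymes of amino acid and folate synthesis, 5 amino acid transporters and 12 synthetases. The study used PC9, HCC827, H1975 and HCC2935, which are human non-small cell lung cancer lines with an EGFR mutation, and osimertinib, an inhibitor of mutant EGFR. Each line was sampled in 5 arms with 3 biological replicates, which gave 20 groups and 60 libraries. The DMSO arm received vehicle for 24 h and the acute arm received 500 nM osimertinib for 24 h, in both cases after 21 days of growth without drug. Drug-tolerant persister (DTP) cells were those left after 21 days in 500 nM osimertinib. The short washout arm was DTP cells kept a further 24 h without drug. The long washout arm was DTP cells kept without drug until growth resumed, according to the labels. The time without drug was 7 days in PC9, 4 days in HCC827, 3 days in H1975 and 10 days in HCC2935, so it differs between lines.

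When amino acids run short, uncharged tRNA activates the kinase GCN2 (EIF2AK4), and unfolded protein in the endoplasmic reticulum activates PERK (EIF2AK3). Either kinase phosphorylates the translation factor eIF2, which lowers protein synthesis in general while translation of ATF4 rises. ATF4 then activates genes that make, import and charge amino acids, so its own mRNA is only 1 of several points at which the pathway is controlled.

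The total count per library ran from 17.7 to 49.1 M (mega) counts. PC9 libraries held 34.7 to 47.1 M and H1975 libraries 38.7 to 49.1 M, against 17.7 to 25.1 M in HCC827 and 18.6 to 25.6 M in HCC2935, so depth was alike within each of these pairs of lines and differed between the pairs. Each library resembled libraries of its own line most closely. For 47 of 60 the closest library was also of the same group. The exceptions lay among the DTP and washout arms. PC9 long washout replicate 3 was closer to a short washout library (r = 0.9934 across genes, which are not independent replicates) than to its own group (mean r = 0.9776). In HCC2935, long washout replicate 1 and DTP replicate 3 were each other's closest library. In HCC827 all 3 DTP libraries, short washout replicates 1 and 3 and long washout replicate 3 were closest to a library of another of those arms. The same held for the 3 DTP libraries and short washout replicate 2 of H1975. H1975 acute replicate 3 was closest to its own group but stood apart in several of the genes below.

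Epithelial keratins were high throughout, with medians over the 60 libraries of 1593 TPM (transcripts-per-million) for KRT8, 1677 for KRT18, 1539 for KRT19 and 1978 for KRT7. The adhesion genes EPCAM and CDH1 had medians of 304 and 201 TPM, but only 23.1 and 2.77 TPM in H1975. The lung lineage factor NKX2-1 had a median of 0.873 TPM in PC9, 47.5 in HCC827, 20.1 in H1975 and 81.9 in HCC2935. Of the markers of other cells, the immune genes PTPRC and CD3E had medians of 0.136 and 0 TPM, the endothelial genes PECAM1 and VWF 0.433 and 0.235 TPM, and the fibroblast genes COL1A2 and DCN 0.291 and 0.196 TPM, with 20.1 TPM for COL1A2 in H1975. CD68 and COL1A1 were present at medians of 81.9 and 29.96 TPM. SFTPB and NAPSA, genes of differentiated lung epithelium, had medians of 0.172 and 6.96 TPM.

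The promoters of the members were searched for an 8-base sequence known from amino acid response elements, TGATGNAA on either strand (N is any base). RefSeq windows from 250 bases before to 50 after the start were at hand for 30 members. EIF4EBP1, SHMT2, PYCR1, LARS1, PSPH and YARS1 are named only. The motif occurred in 13 of 30 members (43.3%), against 1217 of 27305 genes with a window (4.46%). By role it occurred in 7 of 10 synthetases, 3 of 5 transporters, 1 of 5 synthesis enzymes and 2 of 10 transcription factors and feedback genes. A gene counted if any of its windows matched. Of single windows, 13 of 47 of the members (27.7%) and 1270 of 35116 of all genes (3.62%) matched. The members were chosen by name as known ATF4 targets or synthetases, and the sequence is known from amino acid response elements. Their higher share is therefore not independent of the choice of genes, and it was not tested. A match describes these letters and is not shown to be a binding site. The 5 members with the motif whose size of change averaged highest over the acute comparisons are shown, with the motif in capitals as read on the gene's own strand (GRCh38.p14, 5′ to 3′). They lie at chr13:29595659-29595726 (SLC7A1, minus strand), chr2:64989347-64989428 (SLC1A4, plus), chr9:92293668-92293755 (IARS1, minus), chr15:40953221-40953314 (CHAC1, plus) and chr7:97872424-97872521 (ASNS, minus). Where TTGCATCA is in capitals, TGATGCAA lies on the other strand.
SLC7A1: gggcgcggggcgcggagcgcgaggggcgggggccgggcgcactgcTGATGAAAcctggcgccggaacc
SLC1A4: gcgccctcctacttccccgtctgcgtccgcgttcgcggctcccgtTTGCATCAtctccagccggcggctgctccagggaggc
IARS1: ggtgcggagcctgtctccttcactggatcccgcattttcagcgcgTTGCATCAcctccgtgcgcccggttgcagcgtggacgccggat
CHAC1: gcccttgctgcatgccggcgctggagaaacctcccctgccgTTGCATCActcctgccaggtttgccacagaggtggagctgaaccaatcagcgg
ASNS: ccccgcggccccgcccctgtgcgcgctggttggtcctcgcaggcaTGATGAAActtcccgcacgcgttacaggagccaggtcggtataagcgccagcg

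All 36 members were matched in GENCODE 29, where 18 overlap a gene on the opposite strand and 9 a gene on the same strand. The counting was not stated to use strand. DDIT3 and MARS1, for example, overlap on opposite strands, and if counting ignored strand, reads shared by them cannot be told apart. For 12 members the annotation names pseudogenes, among them ATF4 (4), ASNS (5), PSAT1 (4) and MTHFD2 (7), and counts of these genes are uncertain to the extent that reads were split with such copies.

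In DMSO the 4 lines started from different levels. Per length, ATF4 was the most abundant member in PC9 (486 TPM) and HCC2935 (501 TPM), DDIT4 in HCC827 (573 TPM) and SHMT2 in H1975 (276 TPM). ASNS ranged from 9.93 TPM in PC9 to 142 TPM in HCC2935, a ratio of 14.3. SLC1A4 ranged from 2.13 TPM in HCC827 to 27.7 TPM in HCC2935 and CHAC1 from 1.87 TPM in PC9 to 22.9 TPM in HCC2935. DDIT4 was lowest in HCC2935, at 41.8 TPM. The threonyl-tRNA synthetase TARS1 varied least, by a ratio of 1.08. In TPM, HCC2935 had the highest DMSO level for 14 members and HCC827 for 13, and PC9 had the lowest for 17. These counts were made in TPM only, and the order of the lines depends on the unit. On the CPM scale defined below, TARS1 stood at 274, 276 and 299 in HCC2935 DMSO and at 357, 354 and 371 in PC9 DMSO. By TPM it was highest in HCC2935. ASNS was lowest in PC9 and highest in HCC2935 in both units. The edgeR test that follows used scaled counts and not TPM. In edgeR's test of a difference between the lines in DMSO, 35 of 36 members passed at an adjusted p under 0.05, beside 91.2% of all genes tested. TARS1 was the exception (edgeR adjusted p = 0.0870); without replicate 2 it passed too, with 36 members called.

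**Figure D1:**
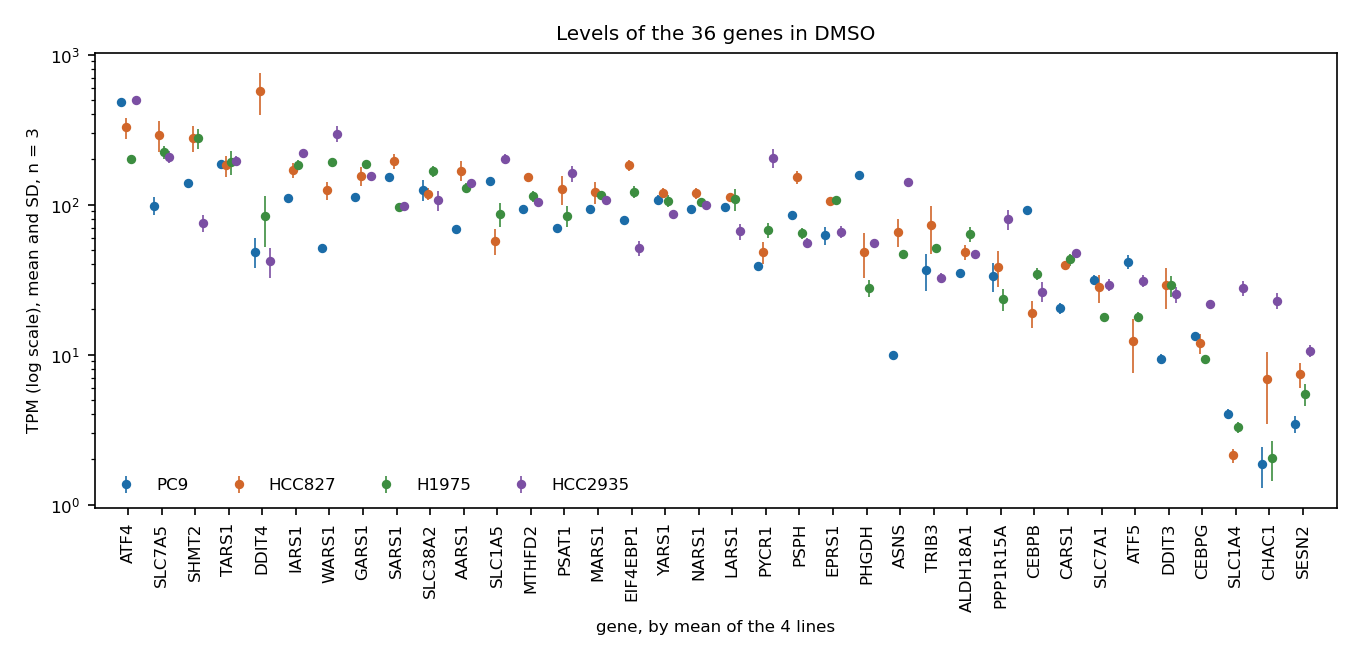
Level of the 36 members in DMSO in TPM (log axis), as the mean and SD of 3 libraries per line, with the genes ordered by their mean over the lines. ASNS spans 9.93 to 142 TPM over the lines, whereas TARS1 spans 182 to 196 TPM.

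The levels below are CPM (counts-per-million) after scaling of all 60 libraries by the trimmed mean of M values (TMM). Log2 fold changes come from edgeR's quasi-likelihood test on the 6 libraries of each comparison, with standard error (SE) and p adjusted by Benjamini-Hochberg over all genes tested, called under 0.05. Acute, DTP and long washout were each compared with the same DMSO libraries, and short washout with the DTP libraries, so these comparisons share samples and are given side by side. In bulk samples, fewer cells of a type and less RNA per cell cannot be told apart.

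Among the transcription factors, ATF4 mRNA was abundant. In PC9, ATF4 stood at 552, 555 and 569 CPM in DMSO, 506, 595 and 549 in acute, 541, 541 and 647 in DTP, 561, 485 and 507 after short and 540.5, 503 and 474 after long washout. In HCC827, ATF4 stood at 353, 376 and 283 CPM in DMSO, 392, 349.9 and 384 in acute, 317, 264 and 236 in DTP, 289.6, 261 and 225 after short and 261, 267 and 307 after long washout. In PC9 the long washout libraries lay below DMSO and the other arms overlapped it, and in HCC827 every arm overlapped DMSO. In H1975, ATF4 stood at 191, 188 and 201 CPM in DMSO, 291, 318 and 222 in acute, 296, 258 and 333 in DTP, 306, 252 and 293 after short and 289, 303 and 297 after long washout. In HCC2935, ATF4 stood at 431, 450.2 and 414 CPM in DMSO, 492, 517 and 491 in acute, 533, 472 and 481 in DTP, 471, 489.8 and 461 after short and 447, 427 and 396 after long washout. All DMSO libraries of H1975 lay below every treated library of that line, and in HCC2935 the acute, DTP and short washout libraries lay above DMSO while long washout overlapped it. ATF4 rose in H1975, by a log2 fold change of 0.45 (SE 0.14, edgeR adjusted p = 0.0297) in acute, 0.58 (SE 0.11, adjusted p = 0.00362) in DTP and 0.57 (SE 0.07, adjusted p = 2.1e-04) after long washout. The acute call was lost without any 1 of DMSO replicates 1, 2 and 3 and acute replicates 1 and 2, with an edgeR adjusted p of up to 0.106. In the other lines ATF4 was not called in any comparison. Its acute log2 fold change in HCC2935 was 0.18 (SE 0.08, edgeR adjusted p = 0.0752), and 0.0342 was its adjusted p with the replicate block, which put it past the threshold. The effect differed between the lines in acute (edgeR adjusted p = 0.0431), DTP (7.1e-04) and long washout (1.0e-04).

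DDIT3, which encodes the stress factor CHOP, was called higher after acute treatment in 3 of 4 lines. In PC9, DDIT3 stood at 5.79, 6.51 and 6.74 CPM in DMSO, 13.7, 10.1 and 11.8 in acute, 13.9, 16.8 and 34.0 in DTP, 20.9, 10.3 and 14.2 after short and 7.93, 9.80 and 14.03 after long washout. In HCC827, DDIT3 stood at 23.2, 13.0 and 16.4 CPM in DMSO, 25.5, 23.6 and 23.01 in acute, 43.4, 25.4 and 20.9 in DTP, 28.2, 24.5 and 18.2 after short and 23.3, 26.3 and 27.5 after long washout. In PC9 every treated library lay above DMSO, and in HCC827 the acute and DTP libraries overlapped DMSO, with DTP replicate 1 the highest. In H1975, DDIT3 stood at 16.3, 13.6 and 19.4 CPM in DMSO, 48.5, 77.5 and 54.1 in acute, 26.3, 14.8 and 26.1 in DTP, 19.1, 13.1 and 20.3 after short and 18.8, 20.9 and 15.2 after long washout. In HCC2935, DDIT3 stood at 12.1, 11.99 and 14.02 CPM in DMSO, 30.8, 20.8 and 28.7 in acute, 32.7, 28.4 and 26.5 in DTP, 18.7, 20.1 and 17.8 after short and 24.5, 15.7 and 14.9 after long washout. The acute libraries of H1975 lay far above all others of the line, and its DTP and washout libraries overlapped DMSO, whereas in HCC2935 every treated library lay above DMSO. Acute log2 fold changes were 0.86 (SE 0.15, edgeR adjusted p = 9.3e-04) in PC9, 1.80 (SE 0.21, adjusted p = 5.0e-04) in H1975 and 1.05 (SE 0.17, adjusted p = 7.4e-04) in HCC2935, against 0.42 (SE 0.20, adjusted p = 0.124) in HCC827, which did not pass. The acute effect differed between the lines (edgeR adjusted p = 0.00281). In DTP, DDIT3 rose in PC9, by 1.73 (SE 0.29, edgeR adjusted p = 4.4e-04), and in HCC2935, by 1.19 (SE 0.14, adjusted p = 1.2e-04). The DTP values of the other lines were 0.79 in HCC827 and 0.41 in H1975, and the difference between lines did not pass (edgeR adjusted p = 0.0542). In HCC2935 it fell again after short washout, at -0.62 (SE 0.12, edgeR adjusted p = 0.0249) against DTP, a call lost without any 1 of DTP replicate 2 and short washout replicates 1, 2 and 3, with an adjusted p of up to 0.107. After long washout it was above DMSO in PC9, by 0.75 (SE 0.23, edgeR adjusted p = 0.0436), and in HCC2935, by 0.57 (SE 0.20, adjusted p = 0.0487). These calls were lost without any 1 of DMSO replicates 1, 2 and 3 and long washout replicate 3 in PC9 (edgeR adjusted p up to 0.135) and without any 1 of DMSO replicates 1, 2 and 3 and long washout replicate 1 in HCC2935 (adjusted p up to 0.191).

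TRIB3, a pseudokinase that dampens ATF4 and CHOP, went down in PC9 and HCC827 and stayed down. In PC9, TRIB3 stood at 52.9, 93.4 and 80.4 CPM in DMSO, 21.7, 26.3 and 22.6 in acute, 22.3, 21.2 and 22.3 in DTP, 22.8, 21.3 and 20.9 after short and 27.9, 37.0 and 20.5 after long washout. In HCC827, TRIB3 stood at 183, 124 and 94.4 CPM in DMSO, 92.6, 63.1 and 65.1 in acute, 82.8, 51.6 and 51.0 in DTP, 61.4, 58.1 and 46.3 after short and 52.2, 54.0 and 64.9 after long washout. In both lines every treated library lay below every DMSO library. In H1975, TRIB3 stood at 93.8, 83.4 and 89.5 CPM in DMSO, 113, 117 and 82.3 in acute, 112, 104 and 114 in DTP, 128, 116 and 119 after short and 101, 102 and 105 after long washout. In HCC2935, TRIB3 stood at 51.0, 54.6 and 45.1 CPM in DMSO, 35.7, 39.5 and 43.3 in acute, 65.4, 36.4 and 43.5 in DTP, 37.2, 47.9 and 37.0 after short and 45.3, 45.8 and 35.9 after long washout. In H1975 the acute libraries overlapped DMSO and those of DTP and both washouts lay above it, whereas in HCC2935 the acute libraries lay below DMSO and the later arms overlapped it. In PC9 TRIB3 fell to a log2 fold change of -1.73 (SE 0.19, edgeR adjusted p = 4.4e-05) in acute, -1.82 (SE 0.18, adjusted p = 9.4e-06) in DTP and -1.40 (SE 0.26, adjusted p = 0.00812) after long washout. In HCC827 the corresponding values were -0.90 (SE 0.24, edgeR adjusted p = 0.0138), -1.10 (SE 0.27, adjusted p = 0.0126) and -1.23 (SE 0.22, adjusted p = 0.00217). The acute call in HCC827 was lost without acute replicate 2 (edgeR adjusted p = 0.0567). In HCC2935 TRIB3 fell in acute only, at -0.37 (SE 0.12, edgeR adjusted p = 0.0239), and the call was lost without any 1 of DMSO replicates 1 and 2 and acute replicates 1 and 2 (adjusted p up to 0.0967). In H1975 it was not called, at 0.16, 0.27 and 0.16. The difference between lines passed in acute (edgeR adjusted p = 2.3e-04), DTP (4.3e-05) and long washout (4.3e-04).

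CHAC1, which degrades glutathione, was low outside HCC2935. In PC9, CHAC1 stood at 1.88, 2.99 and 1.76 CPM in DMSO, 1.55, 0.427 and 2.84 in acute, 3.70, 4.81 and 6.55 in DTP, 3.64, 3.66 and 5.33 after short and 3.18, 3.75 and 4.28 after long washout. In HCC827, CHAC1 stood at 9.87, 8.84 and 3.20 CPM in DMSO, 4.91, 0.952 and 4.94 in acute, 8.39, 3.47 and 0.0926 in DTP, 8.91, 4.85 and 3.33 after short and 0.579, 1.99 and 2.83 after long washout. In PC9 the DTP and washout libraries lay above DMSO and the acute libraries overlapped it, while HCC827 replicates differed widely and its long washout libraries alone lay below all DMSO libraries. In H1975, CHAC1 stood at 1.34, 2.46 and 2.27 CPM in DMSO, 5.03, 4.26 and 1.14 in acute, 4.64, 8.01 and 6.75 in DTP, 12.7, 4.85 and 9.13 after short and 4.14, 3.53 and 4.03 after long washout. In HCC2935, CHAC1 stood at 18.7, 19.8 and 22.2 CPM in DMSO, 28.2, 24.4 and 32.0 in acute, 49.9, 43.1 and 40.1 in DTP, 25.9, 25.8 and 37.6 after short and 25.7, 25.0 and 20.6 after long washout. In both lines the DTP and short washout libraries lay above DMSO, with the DTP libraries of HCC2935 above all others of the line. CHAC1 rose in DTP in PC9, by 1.14 (SE 0.29, edgeR adjusted p = 0.00515), in H1975, by 1.65 (SE 0.31, adjusted p = 0.00285), and in HCC2935, by 1.12 (SE 0.13, adjusted p = 1.0e-04), and stood at -0.86 (SE 0.94, adjusted p = 0.517) in HCC827. The difference between lines in DTP did not pass (edgeR adjusted p = 0.0511). In acute it rose in HCC2935, by 0.45 (SE 0.14, edgeR adjusted p = 0.0246), a call lost without any 1 of DMSO replicates 1 and 2 and acute replicates 1 and 3 (adjusted p up to 0.0953). After long washout it was lower in HCC827, at -2.01 (SE 0.58, edgeR adjusted p = 0.0212), and higher in H1975, at 0.90 (SE 0.27, adjusted p = 0.0207), and these values differed between lines (adjusted p = 5.4e-04). The HCC827 call was lost without any 1 of DMSO replicates 1 and 2 and long washout replicates 1 and 2 (edgeR adjusted p up to 0.0777), and the H1975 call without either of long washout replicates 1 and 3 (up to 0.0662).

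SESN2, a stress protein that restrains mTORC1, moved in opposite directions in PC9 and H1975. In PC9, SESN2 stood at 8.90, 11.7 and 10.7 CPM in DMSO, 7.73, 5.17 and 5.85 in acute, 7.02, 7.70 and 9.71 in DTP, 9.07, 7.93 and 7.91 after short and 5.81, 7.11 and 6.35 after long washout. In HCC827, SESN2 stood at 24.1, 19.0 and 17.1 CPM in DMSO, 20.7, 19.7 and 19.5 in acute, 27.1, 15.5 and 14.4 in DTP, 20.9, 17.4 and 15.7 after short and 16.6, 18.6 and 16.5 after long washout. The acute and long washout libraries of PC9 lay below DMSO, and all arms of HCC827 overlapped. In H1975, SESN2 stood at 16.5, 11.4 and 13.6 CPM in DMSO, 23.7, 23.1 and 19.0 in acute, 26.3, 25.6 and 30.3 in DTP, 29.3, 23.6 and 29.4 after short and 25.3, 23.5 and 22.8 after long washout. In HCC2935, SESN2 stood at 21.8, 26.0 and 23.9 CPM in DMSO, 24.0, 26.1 and 30.4 in acute, 34.9, 26.3 and 28.1 in DTP, 27.1, 27.7 and 28.2 after short and 29.4, 25.6 and 23.9 after long washout. Every treated library of H1975 lay above DMSO, and in HCC2935 the DTP and short washout libraries did. In PC9 SESN2 fell in acute, at -0.78 (SE 0.19, edgeR adjusted p = 0.00473), and after long washout, at -0.69 (SE 0.18, adjusted p = 0.0229). In H1975 it rose in acute, by 0.60 (SE 0.17, edgeR adjusted p = 0.0249), in DTP, by 0.95 (SE 0.16, adjusted p = 0.00183), and after long washout, by 0.74 (SE 0.15, adjusted p = 0.00326). The H1975 acute call was lost without any 1 of DMSO replicates 2 and 3 and acute replicates 1 and 2 (edgeR adjusted p up to 0.0832), and the PC9 long washout call without any 1 of DMSO replicates 2 and 3 and long washout replicate 1 (up to 0.0845). The acute effects differed between lines (edgeR adjusted p = 7.5e-04), as did those of DTP (0.00253) and long washout (1.5e-04).

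The remaining feedback genes showed some of the widest shifts. DDIT4, an inhibitor of mTORC1, averaged 706 ± 209 CPM (SD, n = 3) in HCC827 DMSO and 170.1 ± 38.0 in acute, a log2 fold change of -2.09 (SE 0.22, edgeR adjusted p = 1.3e-04), and 83.2 ± 5.20 in DTP, -3.07 (SE 0.21, adjusted p = 4.8e-05). It was still lower after long washout, at -2.44 (SE 0.19, edgeR adjusted p = 3.2e-05). In HCC2935 DDIT4 went from 43.0 ± 9.31 to 157 ± 23.2 CPM in acute, 1.83 (SE 0.17, edgeR adjusted p = 2.3e-05), and in PC9 from 66.9 ± 14.96 to 135 ± 10.1, 0.97 (SE 0.15, adjusted p = 4.2e-04). DDIT4 differed between lines in acute (edgeR adjusted p = 3.7e-07) and in DTP (2.2e-07). PPP1R15A, the stress-induced subunit of the eIF2 phosphatase, rose in acute by 1.04 in PC9, 0.83 in HCC827 and 0.73 in H1975 and fell in HCC2935 at -0.31 (edgeR adjusted p = 0.0495). That last call was lost without any 1 of DMSO replicates 2 and 3 and acute replicates 1, 2 and 3 (edgeR adjusted p up to 0.182), and the H1975 call without any 1 of DMSO replicates 1 and 3 and acute replicates 1 and 2 (up to 0.0833). In DTP it was higher by 1.62 in PC9, 0.91 in HCC827 and 0.85 in H1975. EIF4EBP1, a repressor of cap-dependent translation, fell in acute in PC9 (-1.23), HCC827 (-0.92) and H1975 (-0.74), and stood at -0.00 in HCC2935. It was lower in DTP and after long washout in the same 3 lines. Of the related bZIP factors, ATF5 fell in HCC2935 in acute, at -0.91 (SE 0.14, edgeR adjusted p = 5.4e-04), and CEBPG in PC9, at -1.21 (SE 0.08, adjusted p = 3.2e-06). CEBPB fell in PC9 in acute (-0.58) and rose in HCC2935 (0.43, a call lost without either of DMSO replicate 2 and acute replicate 1, edgeR adjusted p up to 0.0929).

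Of the 8 synthesis enzymes, 7 fell and 0 rose in acute PC9, and 7 fell and 0 rose in acute HCC827. In H1975, 3 fell and 1 rose, and in HCC2935 3 fell and 2 rose. Of all genes, 34.1% fell in PC9, 22.1% in HCC827, 23.7% in H1975 and 25.1% in HCC2935. The shares that rose were 34.4%, 20.2%, 21.2% and 22.0%. PSAT1 carries out the middle step of serine synthesis. In PC9, PSAT1 stood at 125, 120.3 and 129.5 CPM in DMSO, 20.7, 19.1 and 21.6 in acute, 61.7, 59.0 and 56.3 in DTP, 72.6, 75.4 and 80.9 after short and 96.2, 121 and 73.7 after long washout. In HCC827, PSAT1 stood at 234, 221 and 155 CPM in DMSO, 64.5, 53.6 and 58.6 in acute, 126, 80.4 and 82.7 in DTP, 122, 103 and 86.9 after short and 83.0, 68.4 and 109.7 after long washout. In HCC827 every treated library lay below DMSO, and in PC9 only long washout replicate 2 reached the DMSO range. In H1975, PSAT1 stood at 112, 146 and 119 CPM in DMSO, 109, 93.1 and 48.4 in acute, 175, 219 and 242 in DTP, 309.7, 269 and 284 after short and 175, 184 and 157 after long washout. In HCC2935, PSAT1 stood at 249.8, 212 and 185 CPM in DMSO, 167, 205 and 175 in acute, 356, 251 and 282 in DTP, 253, 268 and 219 after short and 221, 191 and 154 after long washout. The DTP and washout libraries of H1975 lay above DMSO and its acute libraries below, with acute replicate 3 far under the other acute libraries, and the DTP libraries of HCC2935 lay above DMSO. PSAT1 fell in acute in PC9, by a log2 fold change of -2.65 (SE 0.08, edgeR adjusted p = 1.4e-07), and in HCC827, -1.82 (SE 0.16, adjusted p = 3.8e-05). In H1975 it was -0.65 (SE 0.28, edgeR adjusted p = 0.0912), and -0.38 (adjusted p = 0.0794) without acute replicate 3. In DTP it was lower in PC9, -1.12 (SE 0.07, edgeR adjusted p = 5.4e-07), and HCC827, -1.06 (SE 0.22, adjusted p = 0.00564), and higher in H1975, 0.72 (SE 0.15, adjusted p = 0.00423), and HCC2935, 0.45 (SE 0.14, adjusted p = 0.0271). The HCC2935 call was lost without any 1 of DMSO replicates 2 and 3 and DTP replicate 1 (edgeR adjusted p up to 0.0899). In PC9 PSAT1 rose after short washout, by 0.37 (SE 0.07, edgeR adjusted p = 0.00656) against DTP. After long washout it stayed lower in HCC827, -1.22 (SE 0.20, edgeR adjusted p = 0.00142), and was higher in H1975, 0.41 (SE 0.11, adjusted p = 0.0143), a call lost without either of DMSO replicate 3 and long washout replicate 2 (adjusted p up to 0.0579). Differences between lines passed in acute (edgeR adjusted p = 4.5e-06), DTP (1.5e-06) and long washout (3.4e-04).

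PHGDH catalyses the entry step of serine synthesis. In PC9, PHGDH stood at 245, 236 and 246 CPM in DMSO, 109, 94.8 and 116 in acute, 211, 225 and 233 in DTP, 220.3, 186 and 212 after short and 266, 272 and 221 after long washout. In HCC827, PHGDH stood at 91.2, 57.4 and 51.2 CPM in DMSO, 27.8, 20.1 and 27.3 in acute, 56.9, 31.7 and 30.7 in DTP, 47.7, 39.3 and 30.04 after short and 34.5, 35.4 and 56.4 after long washout. The acute libraries of both lines lay below DMSO, and the DTP libraries of PC9 lay just below it. In H1975, PHGDH stood at 41.3, 32.97 and 33.3 CPM in DMSO, 51.3, 56.8 and 43.0 in acute, 88.9, 93.7 and 110.5 in DTP, 119, 117 and 123 after short and 76.2, 84.6 and 71.7 after long washout. In HCC2935, PHGDH stood at 68.8, 63.4 and 59.3 CPM in DMSO, 89.5, 99.9 and 99.5 in acute, 95.5, 55.8 and 77.0 in DTP, 66.8, 82.5 and 62.7 after short and 70.9, 68.7 and 54.9 after long washout. Every treated library of H1975 lay above DMSO, as did the acute libraries of HCC2935. Acute log2 fold changes were -1.22 (SE 0.08, edgeR adjusted p = 2.8e-06) in PC9, -1.45 (SE 0.22, adjusted p = 9.6e-04) in HCC827, 0.42 (SE 0.14, adjusted p = 0.0432) in H1975 and 0.57 (SE 0.09, adjusted p = 9.7e-04) in HCC2935. The H1975 call was lost without any 1 of DMSO replicates 2 and 3 and acute replicates 1 and 2 (edgeR adjusted p up to 0.151). In DTP PHGDH rose in H1975, by 1.41 (SE 0.14, edgeR adjusted p = 1.6e-04), and remained higher after long washout, 1.07 (SE 0.12, adjusted p = 1.7e-04). Its DTP value in PC9, -0.16 (SE 0.06, edgeR adjusted p = 0.0384), depended on the scaling: with library size only it was 0.00317 and with limma on log2 TPM 0.11, and the call was also lost without any 1 of DMSO replicates 1 and 3 and DTP replicates 1 and 2 (adjusted p up to 0.131). The difference between lines passed in acute (edgeR adjusted p = 4.8e-07), DTP (3.8e-05) and long washout (1.7e-04).

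ASNS, which makes asparagine, is a widely used readout of ATF4 activity. In PC9, ASNS stood at 14.4, 15.02 and 14.7 CPM in DMSO, 7.79, 6.70 and 6.10 in acute, 17.7, 21.9 and 18.1 in DTP, 18.9, 18.1 and 20.1 after short and 18.5, 20.7 and 20.2 after long washout. In HCC827, ASNS stood at 107, 72.8 and 83.5 CPM in DMSO, 59.0, 57.4 and 56.1 in acute, 65.9, 43.0 and 36.3 in DTP, 65.8, 43.7 and 39.1 after short and 42.4, 39.7 and 59.5 after long washout. In PC9 the acute libraries lay below DMSO and all later ones above it, whereas in HCC827 every treated library lay below DMSO. In H1975, ASNS stood at 56.5, 60.7 and 56.7 CPM in DMSO, 97.2, 87.4 and 48.2 in acute, 109, 137 and 161 in DTP, 182, 159 and 174 after short and 115, 120.2 and 104 after long washout. In HCC2935, ASNS stood at 166, 149 and 157 CPM in DMSO, 189, 244 and 239 in acute, 237, 186 and 175 in DTP, 149, 175 and 143 after short and 146, 126 and 93.8 after long washout. In H1975 acute replicates 1 and 2 lay above DMSO and replicate 3 below it, and the DTP and washout libraries lay above. In HCC2935 acute and DTP libraries lay above DMSO and long washout libraries below. ASNS fell in acute in PC9, -1.14 (SE 0.13, edgeR adjusted p = 5.4e-05), and HCC827, -0.65 (SE 0.14, adjusted p = 0.00558), and rose in HCC2935, 0.48 (SE 0.11, adjusted p = 0.00642). In H1975 the acute value was 0.36 (SE 0.24, edgeR adjusted p = 0.256), and without acute replicate 3 0.61 (adjusted p = 0.00419). In DTP ASNS rose in H1975, 1.19 (SE 0.14, edgeR adjusted p = 3.9e-04), in PC9, 0.35 (SE 0.12, adjusted p = 0.0221), and in HCC2935, 0.32 (SE 0.12, adjusted p = 0.0431), and was lower in HCC827, -0.84 (SE 0.23, adjusted p = 0.0210). These DTP calls were lost without DTP replicate 2 in PC9 (edgeR adjusted p = 0.0969), any of DMSO replicates 1, 2 and 3 and DTP replicate 1 in HCC2935 (up to 0.128) and any of DMSO replicate 1 and DTP replicates 2 and 3 in HCC827 (up to 0.0792). After long washout ASNS was higher in PC9 (0.44) and H1975 (0.92) and lower in HCC827 (-0.90), the PC9 call being lost without any 1 of DMSO replicates 1, 2 and 3 and long washout replicate 1 (edgeR adjusted p up to 0.0934). Differences between lines passed in acute (edgeR adjusted p = 4.9e-05), DTP (1.0e-05) and long washout (3.7e-06).

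MTHFD2 is a mitochondrial enzyme of folate metabolism. In PC9, MTHFD2 stood at 149, 139 and 161 CPM in DMSO, 43.7, 33.4 and 48.3 in acute, 85.8, 83.2 and 89.9 in DTP, 99.996, 94.0 and 93.1 after short and 122, 123 and 89.9 after long washout. In HCC827, MTHFD2 stood at 222, 233 and 207 CPM in DMSO, 106, 92.3 and 91.8 in acute, 132, 115 and 98.99 in DTP, 130.0, 105 and 103 after short and 109.8, 103 and 141 after long washout. In both lines every treated library lay below DMSO. In H1975, MTHFD2 stood at 164, 137 and 163 CPM in DMSO, 127, 128 and 88.5 in acute, 135, 153 and 159 in DTP, 177, 151 and 169 after short and 141, 133 and 137 after long washout. In HCC2935, MTHFD2 stood at 130.0, 123 and 124 CPM in DMSO, 90.8, 112 and 110.0 in acute, 184, 155 and 159 in DTP, 182, 174 and 157 after short and 155, 137 and 115 after long washout. The acute libraries of both lines lay below DMSO, and the DTP and short washout libraries of HCC2935 above it. MTHFD2 fell in acute in all 4 lines, by log2 fold changes of -1.88 (SE 0.13, edgeR adjusted p = 3.3e-06) in PC9, -1.23 (SE 0.10, adjusted p = 2.4e-05) in HCC827, -0.50 (SE 0.16, adjusted p = 0.0371) in H1975 and -0.29 (SE 0.10, adjusted p = 0.0378) in HCC2935. The call was lost without any 1 of DMSO replicates 1 and 3 and acute replicates 2 and 3 in H1975 (edgeR adjusted p up to 0.0970) and without any 1 of DMSO replicates 1, 2 and 3 and acute replicate 1 in HCC2935 (up to 0.111). In DTP it was lower in PC9 (-0.83) and HCC827 (-0.92) and higher in HCC2935, 0.39 (SE 0.09, edgeR adjusted p = 0.00557). Both the acute and the DTP effect differed between lines (edgeR adjusted p = 4.1e-06 and 3.5e-07).

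Of the other synthesis enzymes, PSPH, which completes serine synthesis, fell in acute in PC9, -1.06 (SE 0.08, edgeR adjusted p = 5.0e-06), in HCC827, -0.67 (SE 0.10, adjusted p = 6.3e-04), and in HCC2935, -0.32 (SE 0.11, adjusted p = 0.0399), the last lost without any 1 of DMSO replicates 1, 2 and 3 and acute replicates 1 and 2 (adjusted p up to 0.148). SHMT2, which turns serine into glycine in mitochondria, was lower after long washout in all 4 lines, at -0.38 in PC9, -0.75 in HCC827, -1.07 in H1975 and -0.42 in HCC2935. Its mean level in H1975 went from 310.3 ± 50.6 CPM (SD, n = 3) in DMSO to 231 ± 23.4 in acute and 153 ± 8.95 after long washout. The long washout call was lost without any 1 of DMSO replicates 1, 2 and 3 and long washout replicate 1 in PC9 (edgeR adjusted p up to 0.116) and without any 1 of DMSO replicates 1 and 2 and long washout replicates 1 and 3 in HCC2935 (up to 0.127). Of the proline synthesis enzymes, PYCR1 fell in acute in PC9, -0.78 (SE 0.08, edgeR adjusted p = 2.3e-05), and was higher in HCC827 after long washout, 0.59 (SE 0.15, adjusted p = 0.0122). ALDH18A1 fell in acute in HCC827, -0.54 (SE 0.10, edgeR adjusted p = 0.00268), and was higher in HCC2935 in DTP, 0.36 (SE 0.10, adjusted p = 0.0135), a call lost without DTP replicate 3 (adjusted p = 0.0556).

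**Figure D2:**
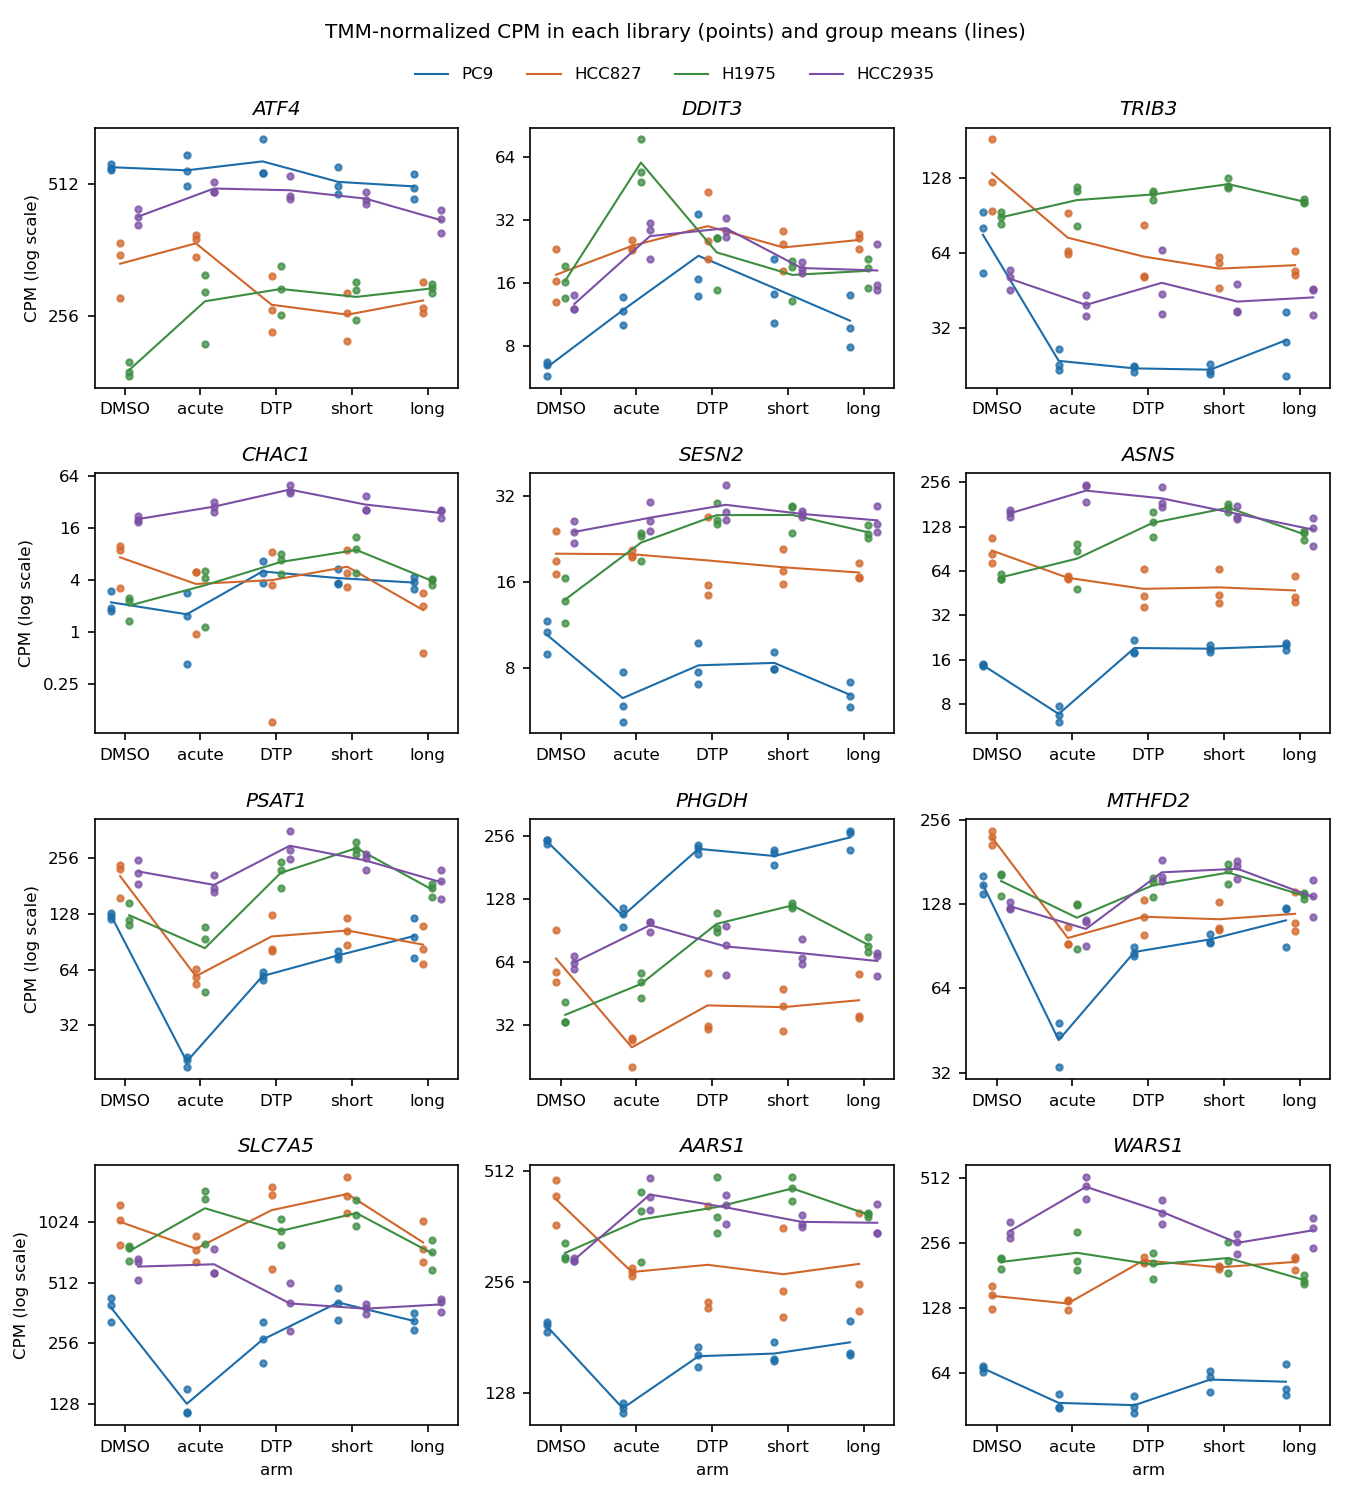
Level of 12 members in each of the 60 libraries, in CPM on a log axis, by line and arm, with 1 point per library. PSAT1 in PC9 drops from between 120.3 and 129.5 CPM in DMSO to between 19.1 and 21.6 in acute, and ASNS of H1975 acute replicate 3 (48.2 CPM) lies apart from the other acute libraries (97.2 and 87.4 CPM).

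The transporter SLC7A5 carries leucine and other large neutral amino acids. In PC9, SLC7A5 stood at 431, 327 and 397 CPM in DMSO, 118, 116 and 153 in acute, 327, 206 and 269 in DTP, 407, 483 and 333 after short and 298, 362 and 332 after long washout. In HCC827, SLC7A5 stood at 1048, 1233 and 781 CPM in DMSO, 744, 643 and 868 in acute, 1377, 599 and 1521 in DTP, 1704, 1133 and 1367 after short and 644, 748 and 1031 after long washout. The acute libraries of PC9 lay below every other library of the line, and those of HCC827 overlapped DMSO, with DTP replicate 2 far under the other DTP libraries. In H1975, SLC7A5 stood at 657, 779 and 759 CPM in DMSO, 1321, 1458 and 796 in acute, 782, 1059 and 921 in DTP, 975, 1304 and 1105 after short and 723, 587 and 829 after long washout. In HCC2935, SLC7A5 stood at 645, 670.2 and 525 CPM in DMSO, 573, 568 and 749 in acute, 507, 296 and 408 in DTP, 382, 401 and 357 after short and 365, 424 and 408 after long washout. The acute, DTP and short washout libraries of H1975 lay above DMSO, acute replicate 3 only just, and in HCC2935 the DTP and both washout arms lay below DMSO. SLC7A5 fell in acute in PC9, -1.62 (SE 0.13, edgeR adjusted p = 8.1e-06), and HCC827, -0.48 (SE 0.17, adjusted p = 0.0441), and rose in H1975, 0.64 (SE 0.21, adjusted p = 0.0426). The acute call was lost without any 1 of DMSO replicates 1 and 2 and acute replicates 1 and 2 in HCC827 (edgeR adjusted p up to 0.153) and without any 1 of DMSO replicates 1, 2 and 3 and acute replicates 1 and 2 in H1975 (up to 0.145). In HCC2935 it was lower in DTP, -0.62 (SE 0.18, edgeR adjusted p = 0.0164), and after long washout, -0.59 (SE 0.12, adjusted p = 0.00367), the DTP call being lost without either of DMSO replicates 1 and 2 (adjusted p up to 0.0653). In PC9 it was lower in DTP, -0.56 (SE 0.15, edgeR adjusted p = 0.00783), and rose after short washout, 0.61 (SE 0.17, adjusted p = 0.0330), a call lost without any 1 of DTP replicates 2 and 3 and short washout replicates 1 and 2 (adjusted p up to 0.111). The acute effect differed between lines (edgeR adjusted p = 1.4e-05), while the DTP effect did not pass that test (0.0521).

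SLC1A4, a carrier of alanine, serine and cysteine, averaged 9.70 ± 0.894 CPM (SD, n = 3) in H1975 DMSO and 33.6 ± 1.85 in acute, a log2 fold change of 1.73 (SE 0.12, edgeR adjusted p = 7.2e-05). It fell in PC9, from 14.3 ± 1.03 to 6.97 ± 1.25 CPM, -1.07 (SE 0.16, edgeR adjusted p = 2.5e-04). In HCC827 it was not called in acute (-0.12 (SE 0.22, edgeR adjusted p = 0.682)) and higher in DTP, at 24.6 ± 6.98 CPM against 6.75 ± 0.637, 1.88 (SE 0.24, adjusted p = 6.8e-04). After long washout SLC1A4 was higher in all 4 lines, by 0.44 in PC9, 1.66 in HCC827, 1.86 in H1975 and 0.35 in HCC2935. The PC9 call was lost without any 1 of DMSO replicates 1, 2 and 3 and long washout replicate 1 (edgeR adjusted p up to 0.111) and the HCC2935 call without any 1 of DMSO replicates 2 and 3 and long washout replicates 1 and 3 (up to 0.129). SLC7A1, which imports arginine and lysine, fell in acute in all 4 lines, at -1.76 in PC9, -0.41 in HCC827, -0.56 in H1975 and -0.59 in HCC2935. Its HCC827 call was lost without any 1 of DMSO replicates 1 and 2 and acute replicates 1, 2 and 3 (edgeR adjusted p up to 0.103). The glutamine transporter SLC1A5 fell in acute in PC9 (-0.70) and HCC827 (-0.70) and rose in HCC2935 (0.37), where it then was lower in DTP, -0.53 (SE 0.11, edgeR adjusted p = 0.00324). SLC38A2, a sodium-coupled carrier of small neutral amino acids, was higher in DTP in all 4 lines, by 0.52 in PC9, 0.63 in HCC827, 0.85 in H1975 and 0.33 in HCC2935, the last lost without any 1 of DMSO replicates 1 and 2 and DTP replicates 1 and 2 (edgeR adjusted p up to 0.107). In acute HCC2935 its value was -0.32 (SE 0.12, edgeR adjusted p = 0.0552), and it passed with the replicate block (adjusted p = 0.00338).

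Among the synthetases, which charge tRNAs with their amino acids, AARS1 (alanine) and WARS1 (tryptophan) moved in opposite directions by line. In PC9, AARS1 stood at 188, 196 and 199 CPM in DMSO, 117, 120.2 and 113 in acute, 162, 171 and 150.5 in DTP, 159, 157 and 176 after short and 163, 201 and 164 after long washout. In HCC827, AARS1 stood at 484, 436 and 365 CPM in DMSO, 273, 278 and 266 in acute, 411, 227 and 218 in DTP, 358, 242 and 206 after short and 253, 214 and 393 after long washout. The acute libraries of both lines lay below DMSO, and HCC827 DTP replicate 1, short washout replicate 1 and long washout replicate 3 were far above the rest of their groups. In H1975, AARS1 stood at 295, 325 and 299.8 CPM in DMSO, 397, 447 and 289 in acute, 383, 348 and 493 in DTP, 491, 425 and 459 after short and 394, 390.0 and 385 after long washout. In HCC2935, AARS1 stood at 292, 297 and 293 CPM in DMSO, 400.5, 433 and 489.6 in acute, 440.4, 368 and 414 in DTP, 367, 389 and 361 after short and 416, 346 and 348 after long washout. Every treated library of HCC2935 lay above DMSO, as did the DTP and washout libraries of H1975, where acute replicate 3 was the lowest of all. Acute log2 fold changes were -0.78 (SE 0.06, edgeR adjusted p = 6.5e-06) in PC9, -0.69 (SE 0.11, adjusted p = 0.00115) in HCC827, 0.24 (SE 0.16, adjusted p = 0.252) in H1975, 0.40 (adjusted p = 0.0160) there without acute replicate 3, and 0.56 (SE 0.10, adjusted p = 0.00114) in HCC2935. In DTP AARS1 was lower in PC9 (-0.31) and higher in HCC2935 (0.46) and H1975 (0.38 (SE 0.14, edgeR adjusted p = 0.0480)), the H1975 call being lost without any 1 of DMSO replicates 1, 2 and 3 and DTP replicates 1 and 3 (adjusted p up to 0.141). Its effect differed between lines in acute (edgeR adjusted p = 2.1e-06), DTP (0.00138) and long washout (0.00325).

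In PC9, WARS1 stood at 69.5, 67.8 and 65.0 CPM in DMSO, 44.6, 44.2 and 51.1 in acute, 50.1, 44.7 and 41.8 in DTP, 52.5, 65.4 and 61.5 after short and 50.5, 70.9 and 54.0 after long washout. In HCC827, WARS1 stood at 163, 148 and 127 CPM in DMSO, 126, 139.6 and 138 in acute, 209.6, 207 and 221 in DTP, 193, 200.2 and 199 after short and 216, 220.1 and 191 after long washout. The acute and DTP libraries of PC9 lay below DMSO, and the DTP and washout libraries of HCC827 above it. In H1975, WARS1 stood at 217, 193 and 218 CPM in DMSO, 211, 288 and 193 in acute, 229.6, 174 and 206 in DTP, 258, 186 and 210.5 after short and 165, 181 and 171 after long washout. In HCC2935, WARS1 stood at 284, 270.1 and 319 CPM in DMSO, 469.8, 518 and 408 in acute, 403, 352 and 314 in DTP, 258, 282 and 229 after short and 335, 301 and 243 after long washout. In H1975 only the long washout libraries lay apart from DMSO, below it, and in HCC2935 the acute libraries lay above all others. WARS1 fell in acute in PC9, -0.57 (SE 0.08, edgeR adjusted p = 2.1e-04), and rose in HCC2935, 0.65 (SE 0.11, adjusted p = 0.00101). In DTP it was lower in PC9, -0.60 (SE 0.09, edgeR adjusted p = 1.3e-04), and higher in HCC827, 0.56 (SE 0.12, adjusted p = 0.00776). Short washout raised it in PC9, 0.39 (SE 0.10, edgeR adjusted p = 0.0247), and lowered it in HCC2935, -0.47 (SE 0.11, adjusted p = 0.0475). The PC9 call was lost without any 1 of DTP replicates 2 and 3 and short washout replicates 2 and 3 (edgeR adjusted p up to 0.0899) and the HCC2935 call without any 1 of DTP replicates 1 and 2 and short washout replicates 1, 2 and 3 (up to 0.166), and the difference between lines did not pass (adjusted p = 0.138). It did pass in acute (1.1e-04) and DTP (2.0e-05).

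Of the other synthetases of the set, in acute PC9 IARS1 (isoleucine) fell from 344 ± 19.3 to 129 ± 10.7 CPM (SD, n = 3), -1.46 (SE 0.08, edgeR adjusted p = 1.1e-06), and TARS1 (threonine) from 361 ± 9.20 to 160.4 ± 4.23, -1.21 (SE 0.06, adjusted p = 6.8e-07). YARS1 (tyrosine) fell in PC9 at -1.09 in acute and -1.37 in DTP, and GARS1 (glycine) at -1.04 and -0.76. In H1975 DTP cells TARS1 was higher, 0.41 (SE 0.13, edgeR adjusted p = 0.0314), and so were CARS1 (cysteine), 0.81 (SE 0.10, adjusted p = 4.8e-04), SARS1 (serine), 0.51 (SE 0.09, adjusted p = 0.00224), and GARS1, 0.38 (SE 0.10, adjusted p = 0.0139). The TARS1 call was lost without any 1 of DMSO replicates 1 and 3 and DTP replicates 1, 2 and 3 (edgeR adjusted p up to 0.117) and the GARS1 call without either of DMSO replicates 1 and 3 (up to 0.0634). EPRS1, which charges tRNAs for glutamate and proline, was higher in DTP HCC2935, 0.61 (SE 0.09, edgeR adjusted p = 6.8e-04), and lower in DTP HCC827, -0.61 (SE 0.11, adjusted p = 0.00271). NARS1 (asparagine) and LARS1 (leucine) fell in acute in all 4 lines, NARS1 at -0.29, -0.46, -0.51 and -0.22 in PC9, HCC827, H1975 and HCC2935 and LARS1 at -0.73, -0.78, -0.54 and -0.37. In HCC2935 the NARS1 call was lost without any 1 of the 6 libraries (edgeR adjusted p up to 0.133) and the LARS1 call without any 1 of DMSO replicates 1 and 3 and acute replicates 1 and 2 (up to 0.0979). In H1975 the LARS1 call was lost without any 1 of DMSO replicates 2 and 3 and acute replicates 2 and 3 (up to 0.101). MARS1 (methionine) fell in acute in PC9 (-0.89), HCC827 (-0.46) and H1975 (-0.44) and stood at 0.01 in HCC2935. TARS1 in acute HCC2935, -0.18 (SE 0.09, edgeR adjusted p = 0.143), passed with the replicate block (adjusted p = 0.0451).

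Summed over the 12 synthetases, the level per length in PC9 was 1156 ± 43.8 TPM (SD, n = 3) in DMSO, 713 ± 28.2 in acute, 886 ± 15.7 in DTP and 1004 ± 31.7 after long washout. In HCC2935 the sum was 1578 ± 67.7 TPM in DMSO, 1743 ± 148 in acute, 2017 ± 120.2 in DTP and 1705 ± 167 after long washout. The 8 synthesis enzymes summed to 629 ± 21.1 TPM in PC9 DMSO, 302 ± 27.4 in acute and 561 ± 24.96 in DTP. In H1975 they summed to 746 ± 24.96 TPM in DMSO, 602.5 ± 73.1 in acute, 787 ± 64.6 in DTP, 995 ± 54.2 after short and 709.97 ± 36.7 after long washout. In HCC827 acute, they went from 922 ± 126 to 568 ± 8.96 TPM and the synthetases from 1613 ± 163 to 1177 ± 40.97 TPM. These sums are not scaled by TMM. With limma on log2 TPM the DTP median of all genes was 0.29 in PC9 and 0.17 in HCC2935. With TMM it was 0.02 and -0.00. Shifts of all genes on the TPM scale therefore enter the sums as well.

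Acute treatment lowered most members in PC9 and HCC827. In PC9, 27 of 36 fell and 3 rose, where 34.1% of all genes tested fell and 34.4% rose; the risers were DDIT3, DDIT4 and PPP1R15A. In HCC827, 22 fell and 2 rose (SLC38A2 and PPP1R15A), against 22.1% and 20.2% of all genes. The median log2 fold change of the members was -0.78 in PC9 and -0.50 in HCC827, with 0.03 and 0.01 over all genes tested. The most negative values in PC9 were those of PSAT1, MTHFD2 and SLC7A1, and in HCC827 those of DDIT4, PSAT1 and PHGDH. In PC9 all 30 calls held without any 1 of the 6 libraries. In HCC827 4 were higher without DMSO replicate 1, and 20 of 24 calls held throughout, the exceptions being SLC7A1 and SLC7A5, given above, TRIB3, and TARS1, which was lost without acute replicate 2 (edgeR adjusted p = 0.0575). With library size in place of TMM, 57.9% of all calls in HCC827 were for higher genes, and with limma 56.3%, against 47.8%.

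In H1975, acute treatment raised 8 members and lowered 9, against 21.2% and 23.7% of all genes, and the member median was 0.01 (0.03 over all genes). DDIT3, SLC1A4 and PPP1R15A were highest, EIF4EBP1, SLC7A1 and LARS1 lowest. The count of 17 fell to 10 without DMSO replicate 1 or DMSO replicate 2, to 6 without DMSO replicate 3 and to 7 without acute replicate 2. Without acute replicate 3, the library that stood apart, 15 members were higher and 4 lower and the member median was 0.18, and without acute replicate 1, 2 were higher and 10 lower. In HCC2935, 11 members rose and 12 fell, against 22.0% and 25.1% of all genes, with a member median of -0.05 (0.01 over all genes) that ran from -0.13 to 0.011 with 1 library left out. DDIT4, DDIT3 and WARS1 were highest, ATF5, SLC7A1 and IARS1 lowest. The count of 23 fell to 14 without DMSO replicate 1 and to 13 without DMSO replicate 2 or without acute replicate 1, in each case with 4 lower. With each library left out in turn 9 of the 11 higher and 3 of the 12 lower calls held. With the replicate block, 12 members were higher and 14 lower in HCC2935, against 25.2% and 28.0% of all genes.

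Over the lines, 4 members fell in acute in all 4 (MTHFD2, SLC7A1, NARS1 and LARS1), beside 12.7% of the genes tested in every line, and 0 members rose in all 4, beside 6.76%. As given above, the HCC2935 calls of MTHFD2, NARS1 and LARS1 and the HCC827 call of SLC7A1 were lost on leaving out single libraries. By edgeR 11 members were called in opposite directions in different lines, beside 7.42% of genes. These were DDIT4, ASNS, PHGDH, SESN2, CEBPB, SLC7A5, SLC1A4, SLC1A5, PPP1R15A, AARS1 and WARS1. SLC38A2, called higher in HCC827, was also called lower in HCC2935 with the replicate block (log2 fold change -0.32, edgeR adjusted p = 0.00338). The test of a difference between the lines called 31 members, beside 40.5% of all genes, and left out ALDH18A1, CHAC1, LARS1, NARS1 and SHMT2.

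**Figure D3:**
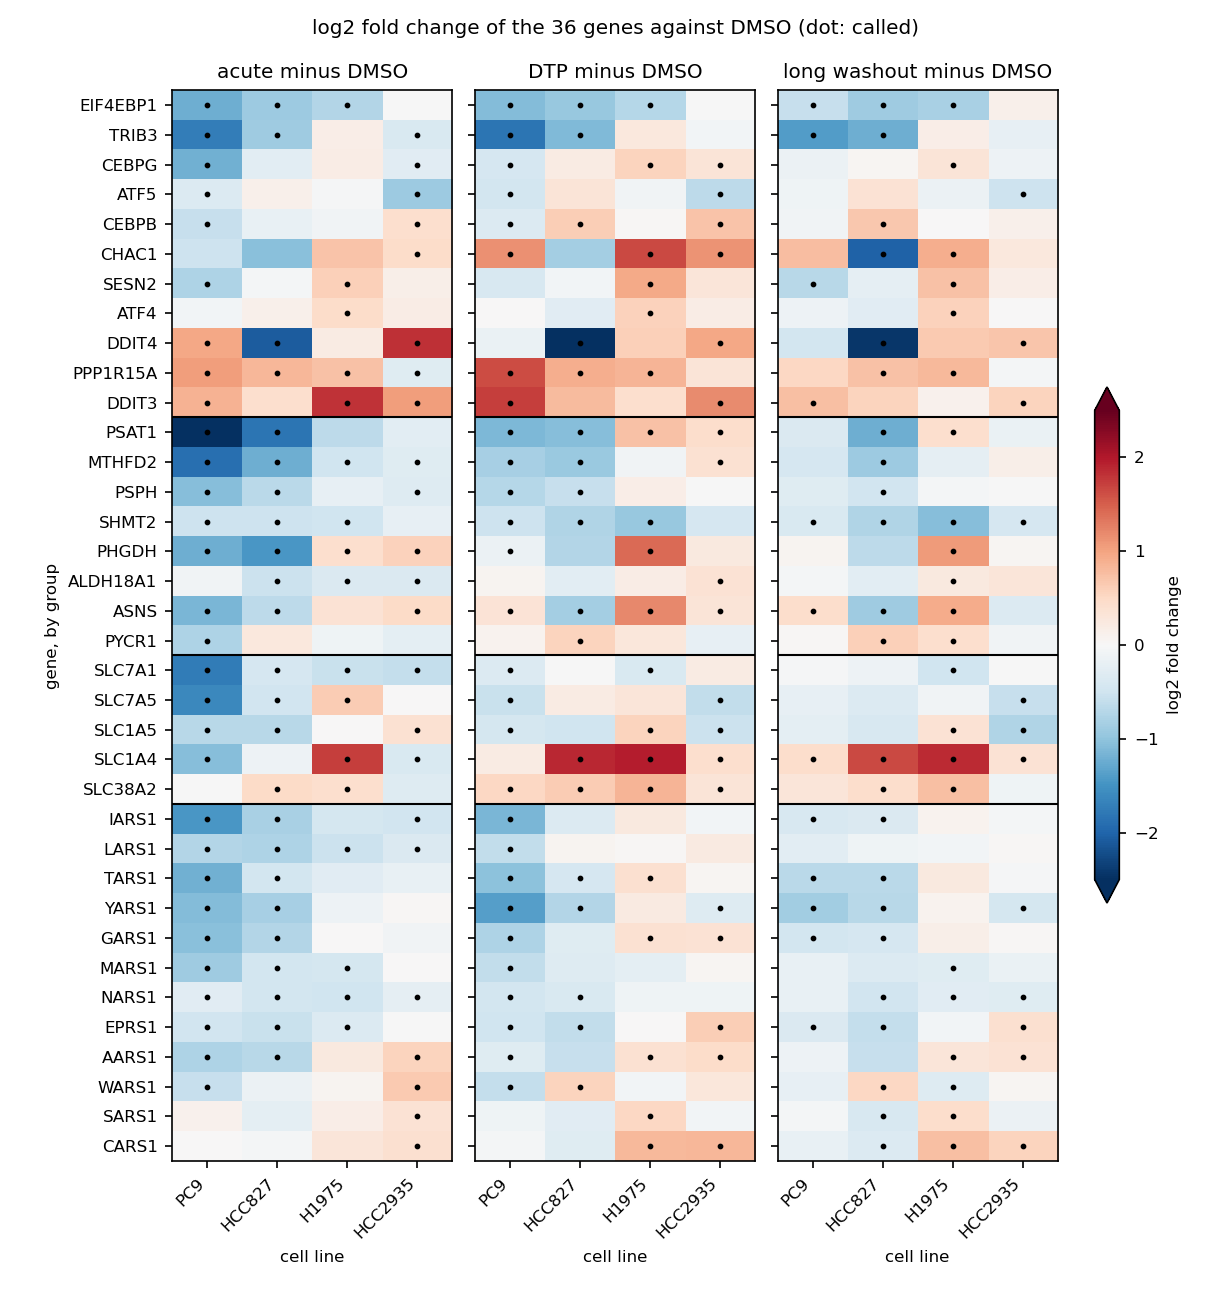
Log2 fold change of the 36 members in acute, DTP and long washout, each against DMSO, in the 4 lines, with dots for calls by edgeR at an adjusted p under 0.05. In acute PC9 27 members are called lower and 3 higher, and in DTP H1975 16 are called higher and 3 lower.

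In DTP cells H1975 and HCC2935 had more members above DMSO than below: 16 were higher and 3 lower in H1975, against 22.4% and 23.4% of all genes, and 15 were higher and 4 lower in HCC2935, against 25.3% and 27.2%. SLC1A4, CHAC1 and PHGDH were highest in H1975, and DDIT3, CHAC1 and DDIT4 in HCC2935. The lowest were SHMT2, EIF4EBP1 and SLC7A1 in H1975 and ATF5, SLC7A5 and SLC1A5 in HCC2935. Member medians were 0.34 in H1975 (0.01 over all genes) and 0.26 in HCC2935 (-0.00 over all genes). In PC9, 5 members were higher and 23 lower, against 35.4% and 35.9%, with a median of -0.43 (0.02). In HCC827, 6 were higher and 12 lower, against 19.4% and 17.2%, with a median of -0.32 (0.02). With all 60 libraries in 1 model, 29 members were called in HCC827 DTP cells. DDIT3, PPP1R15A and CHAC1 were highest and TRIB3, YARS1 and IARS1 lowest in PC9, and SLC1A4, PPP1R15A and SLC38A2 were highest and DDIT4, TRIB3 and PSAT1 lowest in HCC827.

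The scaling bears on PC9 DTP cells: with library size only, the median of all genes was 0.18 and that of the members -0.27, and with limma on log2 TPM 0.29 and -0.16. With no filter the median of all genes was 0.13. The share of calls for higher genes was 58.7% with library size only and 65.3% with limma, against 49.7%. In HCC2935 limma gave a median of 0.17 over all genes and 0.42 over the members, with 62.3% of calls for higher genes against 48.2%, and the member median was 0.17 without DTP replicate 1. With every library left out in turn, 26 of 28 calls held in PC9, 12 of 18 in HCC827, 15 of 19 in H1975 and 12 of 19 in HCC2935. The calls so lost and not described above were those of CEBPB, NARS1, PYCR1, SHMT2 and TARS1 in HCC827, SLC7A1 in H1975, and CEBPG and SLC1A4 in HCC2935. Their highest edgeR adjusted p in HCC827 was 0.180 (CEBPB, lost without any 1 of DMSO replicates 2 and 3 and DTP replicates 2 and 3), in H1975 0.0936 (SLC7A1, without any 1 of DMSO replicates 1 and 3 and DTP replicates 1 and 3) and in HCC2935 0.165 (CEBPG, lost without any 1 of DMSO replicates 1, 2 and 3 and DTP replicate 1).

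SLC38A2 was the only member higher in DTP in all 4 lines (1 of 36, beside 4.5% of genes), and 13 members were called in opposite directions in different lines, beside 16%: DDIT4, ASNS, PSAT1, PHGDH, MTHFD2, CEBPB, CEBPG, SLC1A5, AARS1, GARS1, WARS1, TARS1 and EPRS1. As given above, the HCC2935 call of SLC38A2 was lost on leaving out single libraries. The difference between the lines was called for 31 members, beside 61.6% of genes, and not for CHAC1, DDIT3, SHMT2, SLC38A2 and SLC7A5.

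After a day without drug, 11 members rose and 0 fell against DTP in PC9, where 12.1% and 10.1% of all genes did. Those that rose were SLC7A5, ATF5, SLC7A1, WARS1, PSAT1, IARS1, TARS1, MARS1, EPRS1, GARS1 and PSPH, 6 of them synthetases, and the member median was 0.07 (-0.01 over all genes). The count was 7 without DTP replicate 2, without short washout replicate 2 or with the replicate block, and 1 when all 60 libraries entered the model together. Besides SLC7A5 and WARS1, the calls of GARS1 (edgeR adjusted p up to 0.157, without any 1 of DTP replicates 2 and 3 and short washout replicates 2 and 3) and PSPH (up to 0.138, without any 1 of the 6 libraries) were lost. In HCC2935, 1 member rose (PYCR1, 0.33 (SE 0.07, edgeR adjusted p = 0.0413)) and 4 fell (DDIT4, -0.75 (SE 0.11, adjusted p = 0.00850), DDIT3, WARS1 and CEBPB), against 2.47% and 1.04% of all genes. That count of 5 was 3 without DTP replicate 1, 1 without DTP replicate 2 or short washout replicate 2, and 0 without short washout replicate 1 or 3, so each of these calls rests on single libraries. The member median there was -0.08 (-0.01 over all genes), and 0.01 without DTP replicate 1. DDIT4 was lost without either of short washout replicates 1 and 3 (edgeR adjusted p up to 0.0540).

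In HCC827, edgeR called 0 members and 0.0% of genes after short washout, 0 members had an unadjusted p under 0.05, and DESeq2 and limma also called 0. In H1975 edgeR called 0 members and 0.0% of genes, with 10 members at an unadjusted p under 0.05, 2 called by DESeq2 and 1 without DTP replicate 2. Same-numbered libraries deviated together in both HCC827 and H1975. With the replicate block 0 members and 2 of 14009 genes were called in HCC827. In H1975 10 members were called higher with the block, beside 6.7% of all genes. These were ASNS, EIF4EBP1, MARS1, PHGDH, PSAT1, PSPH, SHMT2, SLC1A4, SLC1A5 and SLC7A5, with edgeR adjusted p with the replicate block from 0.00432 (EIF4EBP1, log2 fold change 0.49) to 0.0444 (SLC1A5, 0.23). The member median in H1975 was 0.18 (-0.01 over all genes), and in HCC827 -0.03 (0.00). With 1 library left out, the HCC827 median ran from -0.079 to 0.086, so its sign was not fixed. The difference between the lines in this comparison was called by edgeR for 0 members, beside 0.0248% of genes, with 4 members at an unadjusted p under 0.05, 3 called by DESeq2 and 1 with the replicate block.

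After long washout H1975 still had more members above DMSO than below, 16 against 6, where 26.8% and 28.2% of all genes were called. SLC1A4, PHGDH and ASNS were highest and SHMT2, EIF4EBP1 and SLC7A1 lowest, with a member median of 0.20 (-0.00 over all genes). In HCC827, 6 were higher and 17 lower, against 19.7% and 19.9%, with a median of -0.38 (-0.01), and SLC1A4, PPP1R15A and CEBPB were highest, DDIT4, CHAC1 and TRIB3 lowest. In HCC2935, 6 were higher and 6 lower, against 21.0% and 18.9%, with a median of -0.01 (0.00). DDIT4, DDIT3 and CARS1 were highest there, SLC1A5, SLC7A5 and ATF5 lowest. In PC9, 3 were higher (DDIT3, ASNS and SLC1A4) and 9 lower, led by TRIB3, YARS1 and SESN2, against 15.9% and 14.7%, with a median of -0.19 (0.01). The PC9 count of 12 was 6 without DMSO replicate 1, 4 without DMSO replicate 2, 3 without DMSO replicate 3, 6 without long washout replicate 1, 18 without long washout replicate 2 and 12 without long washout replicate 3, the library nearest to short washout. With library size only the median of all PC9 genes was 0.12 and 67.4% of calls were for higher genes, and with limma 0.16 and 69.1%, against 51.9%. The limma median of the members was -0.04. The share of calls for higher genes was 47.0% with library size only and 62.2% with limma in HCC2935, against 52.6%, and 58.1% and 56.1% in HCC827, against 49.7%. With 1 library left out, the HCC827 count of 17 lower ran from 11 to 22, and the HCC2935 count of 12 from 4 to 11, with a median from -0.049 to 0.045. Of the calls at either end, PPP1R15A in HCC827 was lost without any 1 of DMSO replicates 1 and 3 and long washout replicate 3 (edgeR adjusted p up to 0.0627), and in HCC2935 DDIT4 without either of DMSO replicate 2 and long washout replicate 1 (0.0744) and ATF5 without any 1 of DMSO replicates 1 and 2 and long washout replicates 1 and 3 (0.0757). With each library left out in turn, 3 of 12 calls held in PC9 (0 higher), 16 of 23 in HCC827, 16 of 22 in H1975 and 4 of 12 in HCC2935 (1 higher).

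SLC1A4 was higher and SHMT2 lower after long washout in all 4 lines (1 member each, beside 2.53% and 2.46% of genes), and 10 members were called in opposite directions, beside 12.9%: DDIT4, CHAC1, ASNS, PSAT1, SESN2, SLC1A5, SARS1, WARS1, EPRS1 and CARS1. As given above, the PC9 and HCC2935 calls of both SLC1A4 and SHMT2 were lost on leaving out single libraries. The difference between the lines was called for 26 members, beside 52.4% of genes, and for 14 without replicate 1. It was not called for CEBPB, CEBPG, DDIT3, LARS1, MARS1, NARS1, PPP1R15A, PSPH, SLC7A1 and SLC7A5.

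Of all genes, the shares higher and lower in acute were 34.4% and 34.1% in PC9, 20.2% and 22.1% in HCC827, 21.2% and 23.7% in H1975 and 22.0% and 25.1% in HCC2935. Of 8 cytosolic synthetases outside the set, 7 fell and 1 rose in acute PC9, 6 and 1 in HCC827, 7 and 0 in H1975 and 7 and 1 in HCC2935, with medians of -0.69, -0.35, -0.83 and -0.46. The 12 of the set gave 10 lower and 0 higher in PC9, 9 and 0 in HCC827, 4 and 0 in H1975 and 3 lower and 4 higher in HCC2935, with medians of -0.76, -0.51, -0.21 and 0.00. FARSB, a subunit for phenylalanine, fell at -2.27 in PC9, -1.22 in HCC827, -1.52 in H1975 and -1.33 in HCC2935. QARS1 (glutamine) was the one that rose, by 0.89 in PC9, 0.49 in HCC827 and 0.39 in HCC2935, and was not called in H1975 (0.18). In DTP the 8 others gave 7 lower and 1 higher in PC9, 4 and 1 in HCC827, 6 and 0 in H1975 and 6 and 0 in HCC2935, while the 12 of the set gave 10 and 0, 4 and 1, 0 and 5, and 1 and 4 (higher and lower, 35.4% and 35.9%, 19.4% and 17.2%, 22.4% and 23.4%, and 25.3% and 27.2% of all genes). After long washout the 8 others gave 6 lower in PC9, 4 in HCC827, 6 in H1975 and 4 in HCC2935, with 1 higher in H1975, and the set 5 lower, 8, 3 and 2, with 0, 1, 3 and 3 higher (higher and lower, 15.9% and 14.7%, 19.7% and 19.9%, 26.8% and 28.2%, and 21.0% and 18.9% of all genes). No test compared these lists with each other.

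**Figure D4:**
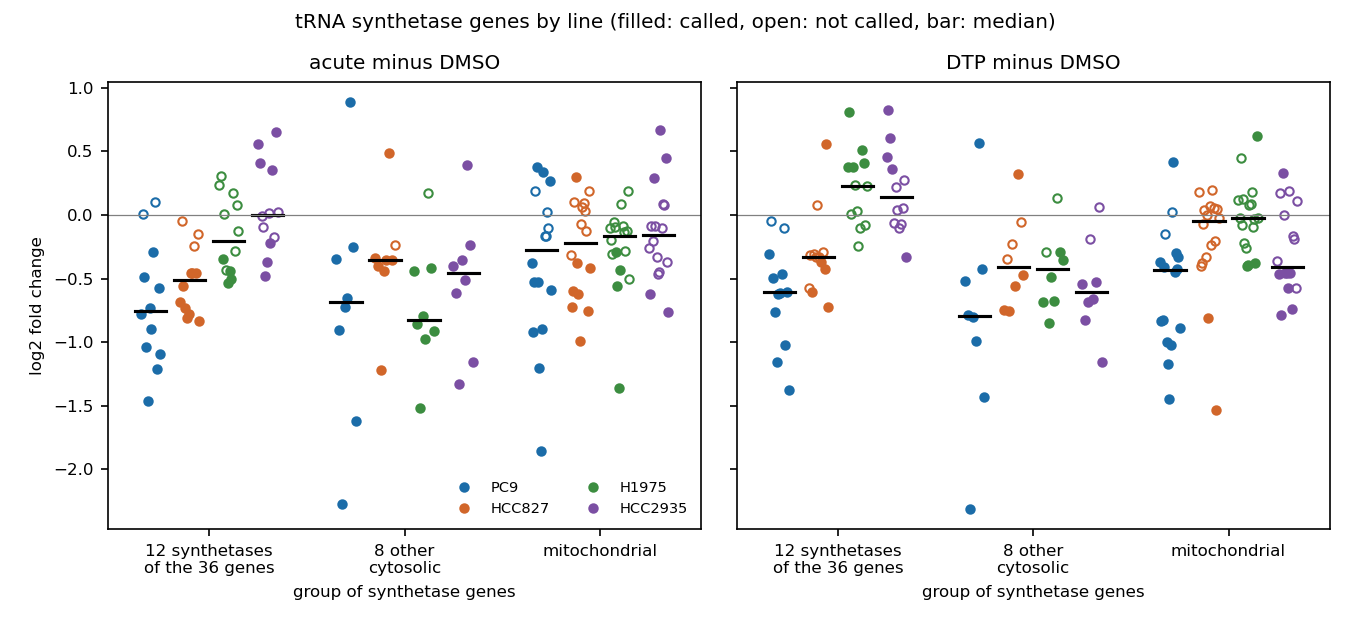
Log2 fold change of single synthetase genes in acute and DTP against DMSO by line, for the 12 cytosolic members, 8 other cytosolic and the mitochondrial synthetases, with filled points for calls by edgeR. In DTP H1975 5 members are called higher and 0 lower, and of the 8 other cytosolic synthetases 0 higher and 6 lower.

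Mitochondrial synthetases, of which 16 or 17 were tested, gave 3 higher and 8 lower in acute PC9, 1 and 7 in HCC827, 0 and 4 in H1975 and 3 and 2 in HCC2935, against 34.4% and 34.1%, 20.2% and 22.1%, 21.2% and 23.7%, and 22.0% and 25.1% of all genes.

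Other genes of the ATF4 pathway were counted from a list of 20, of which 19 were used and 18 tested. In acute they gave 9 higher and 7 lower in PC9, 5 and 5 in HCC827, 8 and 1 in H1975 and 7 and 5 in HCC2935, against 34.4% and 34.1%, 20.2% and 22.1%, 21.2% and 23.7%, and 22.0% and 25.1% of all genes. In DTP they gave 11 higher and 5 lower in PC9, 4 and 2 in HCC827, 16 and 0 in H1975 and 11 and 3 in HCC2935, against 35.4% and 35.9%, 19.4% and 17.2%, 22.4% and 23.4%, and 25.3% and 27.2% of all genes, with list medians of 0.51, 0.20, 0.93 and 0.58. NUPR1, a stress-induced chromatin protein, averaged 0.730 ± 0.278 CPM (SD, n = 3) in PC9 DMSO, 12.6 ± 5.56 in acute and 33.4 ± 5.02 in DTP, log2 fold changes of 4.05 (SE 0.39, edgeR adjusted p = 2.1e-05) and 5.44 (SE 0.23, adjusted p = 6.1e-08). The stress factor ATF3 rose in DTP in all 4 lines, most in PC9, by 3.87 (SE 0.38, edgeR adjusted p = 1.1e-05). SLC7A11, which imports cystine, fell in acute in PC9, -1.49 (SE 0.08, edgeR adjusted p = 9.7e-07), and HCC827, -1.23 (SE 0.19, adjusted p = 8.9e-04), and was not called in H1975 (0.31) or HCC2935 (-0.45). In DTP it was lower in PC9 (-1.19) and higher in H1975 (0.51) and HCC2935 (0.57), and not called in HCC827 (-0.26).

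Upstream of ATF4, the PERK gene EIF2AK3 rose in acute in PC9, 1.08 (SE 0.16, edgeR adjusted p = 3.0e-04), and H1975, 1.00 (SE 0.21, adjusted p = 0.00722), and was not called in HCC827 (-0.16) or HCC2935 (-0.12). The GCN2 gene EIF2AK4 fell in acute in PC9, -1.05 (SE 0.06, edgeR adjusted p = 1.6e-06), HCC827, -0.52 (SE 0.10, adjusted p = 0.00261), and HCC2935, -0.23 (SE 0.08, adjusted p = 0.0468), and was not called in H1975 (-0.28). Of 11 genes for eIF2 kinases, eIF2 and eIF2B, 2 were higher and 7 lower in acute PC9, 1 and 5 in HCC827, 1 and 6 in H1975 and 0 and 6 in HCC2935, against 34.4% and 34.1%, 20.2% and 22.1%, 21.2% and 23.7%, and 22.0% and 25.1% of all genes. EIF2S1, the subunit that is phosphorylated, fell in all 4, at -1.47, -1.04, -1.43 and -1.25 in PC9, HCC827, H1975 and HCC2935, and EIF2B3, a subunit of its exchange factor, at -1.86, -1.03, -1.29 and -1.32. These are mRNA levels and phosphorylation was not measured.

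Endoplasmic reticulum chaperones of the unfolded protein response (14 genes) gave 4 higher and 5 lower in acute PC9, 2 and 11 in HCC827, 1 and 7 in H1975 and 2 and 4 in HCC2935, against 34.4% and 34.1%, 20.2% and 22.1%, 21.2% and 23.7%, and 22.0% and 25.1% of all genes. Of 11 regulators of mTORC1 and MYC, 5 were higher and 4 lower in acute PC9, 2 and 2 in HCC827, 5 and 2 in H1975 and 5 and 2 in HCC2935.

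Of 10 targets of ERK, the kinase downstream of EGFR, 9 fell in acute PC9, 8 in HCC827, 8 in H1975 and 10 in HCC2935, and 0 rose in any line, where 34.1%, 22.1%, 23.7% and 25.1% of all genes fell. DUSP6, an ERK phosphatase, went from 49.0 ± 8.04 to 0.796 ± 0.587 CPM (SD, n = 3) in PC9, -6.00 (SE 0.36, edgeR adjusted p = 1.5e-06). In DTP 8 were lower in PC9, 5 in HCC827, 9 in H1975 and 9 in HCC2935, with 1 higher in HCC827 and H1975, and after long washout 5, 4, 8 and 8 were lower, with 2 higher in HCC827 and 1 in H1975. Of all genes, 35.9%, 17.2%, 23.4% and 27.2% were lower (19.4% and 22.4% higher in HCC827 and H1975) in DTP, and 14.7%, 19.9%, 28.2% and 18.9% (19.7% and 26.8%) after long washout. After short washout 6 rose in PC9, where 12.1% of all genes did. All 12 proliferation genes fell in acute and in DTP in every line, with acute medians of -1.69 in PC9, -2.38 in HCC827, -2.26 in H1975 and -1.99 in HCC2935. After long washout 12 of 12 were lower in HCC827 and H1975, 6 in HCC2935 and 4 in PC9 (shares of all genes as for ERK targets), although growth had resumed according to the labels. Long washout medians were -1.49 in HCC827, -2.03 in H1975, -0.49 in HCC2935 and -0.44 in PC9. In DTP the medians of these genes were -1.46, -1.71, -1.80 and -1.57 in the same order. After short washout their medians were 0.21 in PC9 (6 rose), 0.23 in HCC827, 0.80 in H1975 and 0.69 in HCC2935 (4 rose, against 2.47% of all genes). Without the replicate block edgeR called 0.0% of all genes in HCC827 and H1975. The part of growth rate in the changes of the members was not tested.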

How the data were processed

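The deposited values were estimated counts per gene and log2 TPM, which the authors made with HISAT2 2.1.0 and Salmon 0.8.2 on hg38 according to the submitters' processing notes. For testing, each estimated count was taken to its nearest integer. All 60 libraries and 19712 genes were used. Each comparison was tested on its own 6 libraries with edgeR 4.0.16 in R 4.3.3 (filterByExpr, TMM, quasi-likelihood F-test), with p adjusted by Benjamini-Hochberg and called under 0.05. Differences between the 4 lines were tested on 24 libraries, or 12 for DMSO, by an F-test of the line terms. Some of the fits were run on simulated counts, drawn with the same dispersion for every gene and independent replicates. That run does not show how the fits behave with the spread of the real libraries. TPM was taken from the deposited log2 TPM after removal of a 0.01 offset. Python 3.11.15 with pandas 2.3.3, numpy 2.4.6 and matplotlib 3.10.9 made tables and figures.

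Alternatives were DESeq2 1.42.0, RLE size factors, library size only, no filter, limma 3.58.1 (trend) on log2 TPM, all 60 libraries in 1 model, a replicate block, and leaving out each library. Libraries with the same replicate number were checked for shared deviations from their group means. All 3 correlations exceeded 0.1 in 3 of 16 comparisons (short washout in H1975 and HCC827, acute in HCC2935), over a range of -0.646 to 0.697, and only there is the block read as pairing. The 60 pairs of replicates differed by 8.98 to 138.6 times Poisson variation, so none was a copy.

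The members and the lists of other genes were chosen with earlier results of these data known. The genes given by name are 12 chosen by role, and in each comparison the 3 called members with the highest and the 3 with the lowest log2 fold change, and those called in opposite directions in different lines. From each other list up to 3 of the largest called changes could be named, with EIF2AK3, EIF2AK4 and SLC7A11 in any case. Others, named where a line or list called for it, were chosen after their values were seen.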

Additional observations from a re-analysis of the deposited data

Results flagged for a closer look

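These effects differ between the lines by edgeR's interaction test at an adjusted p under 0.05, and the results listed were picked out for that reason alone. The test passed for 31 members in acute, 31 in DTP and 26 after long washout, beside 40.5%, 61.6% and 52.4% of all genes. For members also called higher in 1 line and lower in another, the gap between the highest and the lowest log2 fold change over the 4 lines follows. In acute it was DDIT4 3.92, ASNS 1.62, PHGDH 2.01, SESN2 1.38, CEBPB 1.01, SLC7A5 2.26, SLC1A4 2.80, SLC1A5 1.07, PPP1R15A 1.35, AARS1 1.34 and WARS1 1.22. In DTP it was DDIT4 4.03, ASNS 2.04, PSAT1 1.84, PHGDH 2.14, MTHFD2 1.31, CEBPB 1.06, CEBPG 0.98, SLC1A5 1.09, AARS1 1.03, GARS1 1.14, WARS1 1.16, TARS1 1.43 and EPRS1 1.21. After long washout, where the time without drug also differed between lines, it was DDIT4 3.13, CHAC1 2.92, ASNS 1.82, PSAT1 1.64, SESN2 1.43, SLC1A5 1.11, SARS1 0.84, WARS1 0.84, EPRS1 1.00 and CARS1 1.10. All 3 sets of values share the DMSO libraries, so they are not separate observations. Some calls that place members in these lists were lost on leaving out single libraries, as given above. Among them were the acute calls of SESN2 and SLC7A5 in H1975 and of CEBPB and PPP1R15A in HCC2935. The PHGDH call in DTP PC9 and the CHAC1 calls after long washout in HCC827 and H1975 were others. No cause of the differences was tested.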

How the results depend on the processing

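Over 576 member results per alternative, the call (and, where called, its direction) held for 555 with DESeq2 (21 stronger), 570 with RLE size factors, 560 with no filter, 543 with library size only, 528 with limma, 514 with the replicate block and 504 with all 60 libraries in 1 model (30 stronger, 42 weaker). With 1 library left out, the call held for 3080, 309 became weaker and 67 stronger. Held results include members called in neither analysis whose sign changed: 213 on leaving out 1 library, 34 with limma, 24 with library size only, 10 with no filter and 6 with each of the others. Of results called in either analysis, those of opposite sign were in PC9 DTP cells: PHGDH, called in the main analysis, with library size only (0.00317, adjusted p = 0.965) and limma (0.11, adjusted p = 0.116), and CARS1 (0.22, adjusted p = 0.0474) and SARS1 (0.16, adjusted p = 0.0175), called only with limma. There the median of all genes moved as well.

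With the replicate block, the members called numbered 7 in acute H1975, 7, 10 and 1 after short washout in PC9, H1975 and HCC2935, 6 after long washout in PC9, and 1 in the short washout difference between lines. It moved no other count by over 1.5 times, and outside the 3 comparisons with pairing it only shares numbers. With all 60 libraries in 1 model the counts were 29 in DTP HCC827 and 1 after short washout in each of PC9, H1975 and HCC2935. DESeq2 called 2 after short washout in H1975 and 3 in the short washout difference between lines. The member median in DTP PC9 was -0.27 with library size only and -0.16 with limma. With limma it was 0.42 in DTP HCC2935 and -0.041 after long washout in PC9. The cause was not tested.

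Leaving out 1 library at a time, the count of members called ran from 6 to 19 in acute H1975 (median -0.055 to 0.18), 13 to 19 in acute HCC2935, 7 to 10 after short washout in PC9, 0 to 1 in H1975 and 0 to 4 in HCC2935 (median -0.11 to 0.0067). After long washout it ran from 3 to 18 in PC9, 4 to 11 in HCC2935 and 14 to 27 for the difference between lines. The median in DTP HCC2935 ran from 0.17 to 0.32. With 3 libraries per group, and 2 where 1 is left out, small effects can be missed.

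With scaling, the median of the transporters after long washout in PC9 turned from -0.04 to 0.07 with library size only and 0.11 with limma. That of the mTORC1 and MYC regulators in DTP PC9 turned from -0.07 to 0.09 and 0.20. With limma, after long washout the synthetases of HCC2935 turned from -0.00 to 0.09, the synthesis enzymes from -0.05 to 0.04 and the eIF2 list from -0.03 to 0.06, and the transcription factors and feedback genes of PC9 from -0.14 to 0.01. With library size only, the other ATF4 pathway genes of acute HCC2935 turned from -0.03 to 0.04.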
